A study of Mus musculus with 35 samples.

Results

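Autotaxin, the product of Enpp2, 5 receptors for lysophosphatidic acid (Lpar1, Lpar2, Lpar3, Lpar5 and Lpar6) and 3 lipid phosphate phosphatases (Plpp1, Plpp2 and Plpp3) were followed by poly(A) RNA sequencing of mouse colon tumour organoids. These 9 genes were chosen by name from the 54354 genes of the deposited table, with earlier results of these data known. The response of Enpp2 to both treatments was among those results, so its treatment effects are given as values with their errors and without a test. The organoids, self-organised epithelial cultures grown in vitro, all carry the genotype labelled AKP, controls included. Those treated with palmitic acid, a saturated fatty acid from which cells build ceramides, formed batch 1 (3 libraries) and batch 2 (2 libraries), and both were set against the same 3 control libraries, which the labels assign to neither batch. Those treated with carmofur, a ceramidase inhibitor, gave 15 libraries, set against 12 control libraries of their own. The comparisons ask how transcript levels respond to supplied palmitic acid and to carmofur. Whether a response to carmofur runs through ceramide breakdown was not tested. The sources used here give no dose, duration or vehicle.

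Autotaxin is a secreted enzyme that removes the choline head group of lysophosphatidylcholine and so makes lysophosphatidic acid (LPA) outside the cell. LPA acts through G protein-coupled receptors on the cell surface, which signal through several classes of G protein to phospholipase C and adenylate cyclase, and in gut epithelium it is known to promote migration and proliferation. Lipid phosphate phosphatases are membrane enzymes with their active site facing outwards that dephosphorylate LPA, and they also act on the phosphates of sphingosine and ceramide.

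Total counts ranged from 2138905 to 2845017 in batch 1, from 2406582 to 3742289 in batch 2 and from 762888 to 2511723 in the palmitic acid controls. They ranged from 3127275 to 10609563 with carmofur and from 1663750 to 8124707 in its controls. Levels are given as CPM, a gene's count relative to the library's total after scaling by the trimmed mean of M values (TMM). A count of 0 allows up to 3 counts, a limit that ran from 0.277 to 4.03 CPM over the libraries. Such limits cover counting error only. Separate cultures are not mentioned in the labels, so errors and p-values reflect variation among the sequenced libraries only and part of it may be technical. All 8 epithelial markers examined, among them Epcam and Krt8, were detected, and Cdx2, the lowest of them, had more than 3 counts in 33 of 35 libraries.

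Enpp2 (ENSMUSG00000022425; mm10 chromosome 15, 54838901 to 54952892, minus strand) was lower with palmitic acid and higher with carmofur. In batch 1 it stood at 167, 181 and 144 CPM, and in batch 2 at 179 and 152 CPM, against 278, 337 and 312 CPM in the controls. Every treated library of both batches lay below every control library, as was so for 6.25% of 9845 genes in batch 1 and 9% in batch 2. The mean was 164 ± 18.4 CPM in batch 1 and 309 ± 29.9 CPM in the controls (SD, n = 3 each). The log2 fold change was -0.91 ± 0.17 (SE) in batch 1 and -0.90 ± 0.19 in batch 2. The comparisons share their controls, so the values are set side by side and are not independent of each other. In bulk RNA fewer cells of a type and less RNA per cell cannot be told apart, and this holds for every level given here.

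With carmofur Enpp2 ranged from 476 to 832 CPM with a median of 599 CPM over 15 libraries, against 183 to 365 CPM with a median of 255 CPM over 12 controls. The groups did not overlap, as all 15 treated libraries lay above all 12 controls, which held for 0.54% of 9992 genes. The log2 fold change was 1.24 ± 0.12, or 2.37-fold. By median CPM Enpp2 ranked 306 among the genes with a median above 0 in carmofur libraries and 705 in their controls. It ranked 1015 in batch 1 and 584 in the palmitic acid controls. Both control groups lay in the same range, since the 3 palmitic acid controls fell within the range of the 12 carmofur controls.

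**Figure D1:**
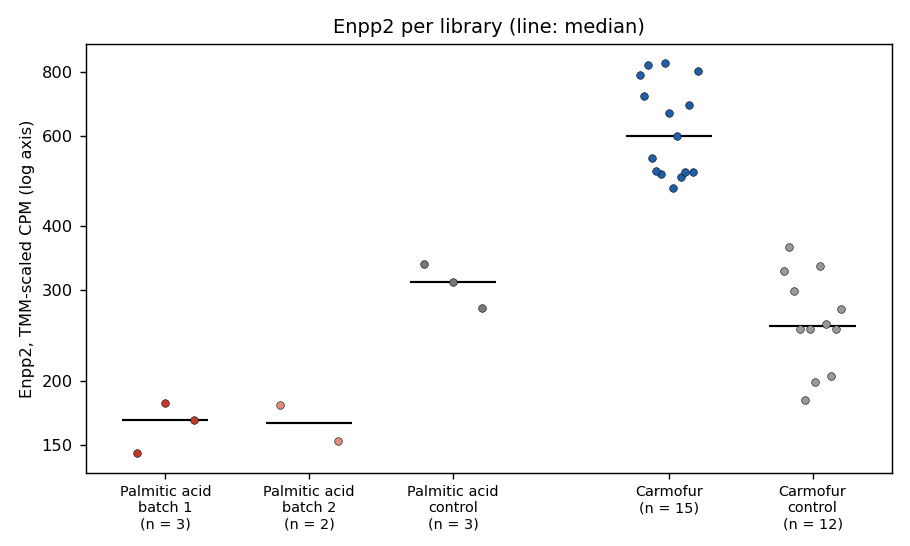
TMM-scaled CPM of Enpp2 (log axis) in each of the 35 libraries by group, with a line at each group's median. The 5 palmitic acid libraries sit between 144 and 181 CPM, below their 3 controls, and the 15 carmofur libraries sit between 476 and 832 CPM, above their 12 controls.

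The palmitic acid batches did not differ detectably in Enpp2. Batch 2 minus batch 1 gave a log2 difference of 0.01 ± 0.18 (adjusted p = 1; every adjusted p here is from the quasi-likelihood F test of edgeR, adjusted by Benjamini-Hochberg over all genes tested), with a 95% interval of -0.35 to 0.36. Between the batches 10 of 9845 genes passed an adjusted p of 0.05 (0.102%, of which 0.0609% higher and 0.0406% lower in batch 2), and 0 of the 5 members tested did so by edgeR.

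The size of the carmofur effect on Enpp2 differed between parts of the experiment. The library numbers in the labels fall into 9 sets of 3 consecutive numbers, each set of 1 group, and into 3 blocks of 12 numbers that each hold both groups. The labels do not say that sets or blocks are batches. In block 1 Enpp2 was at 508 ± 22.2 CPM with carmofur (SD, n = 6) and at 268 ± 27.1 CPM in controls (n = 3). In block 2 it was at 777 ± 58.5 CPM with carmofur (n = 6) and at 195 ± 11.1 CPM in controls (n = 3). In block 3 it was at 593 ± 77.1 CPM with carmofur (n = 3) and at 302 ± 46.5 CPM in controls (n = 6).

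As all carmofur libraries lay above all controls, the same necessarily held within each block. Fitted within blocks, the log2 fold change was 0.88 ± 0.11 in block 1, 1.99 ± 0.14 in block 2 and 0.97 ± 0.14 in block 3. No test of the difference between blocks is given for Enpp2, because it was chosen with results from these same libraries known. The errors take the libraries of a set as independent, so they cover the spread between libraries and not between sets. Over all genes, 1.07% of 13123 passed a test of the treatment by block terms (adjusted p under 0.05, edgeR). Block 2 held both the highest carmofur libraries and the lowest controls. Among the controls alone, the difference between blocks did not pass (adjusted p = 0.243, edgeR), where 0.58% of 11043 genes did.

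**Figure D2:**
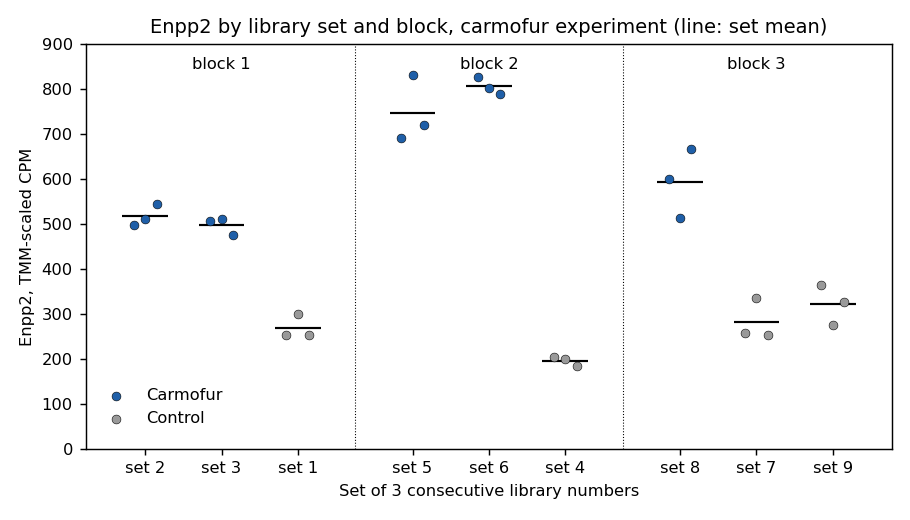
TMM-scaled CPM of Enpp2 in the 27 libraries of the carmofur experiment, by set of 3 consecutive library numbers within the 3 blocks, with a line at each set's mean. Carmofur sets average 498 to 806 CPM and control sets 195 to 323 CPM, and the distance between them is widest in block 2.

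Libraries of 1 set lay close together. The coefficient of variation of Enpp2 within a set ran from 2.43% in set 6 (carmofur) to 16.5% in set 7 (control), while over the whole groups it was 21.3% with carmofur and 21.2% in controls. With counts summed by set, which leaves 5 carmofur and 4 control values, the log2 fold change was 1.24 ± 0.18.

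Among the receptors, Lpar6 and Lpar1 were the ones measured in most libraries. Lpar6 (ENSMUSG00000033446; chromosome 14, 73237895 to 73243294, plus strand) had more than 10 counts in all 35 libraries, at 4.29 to 51.5 CPM. Lpar1 (ENSMUSG00000038668; chromosome 4, 58435255 to 58553898, minus strand) had more than 10 counts in 25 libraries and 3 or fewer in 7. Lpar2 (ENSMUSG00000031861; chromosome 8, 69822429 to 69831102, plus strand) had 0 counts in 19 libraries and more than 10 in 5. Lpar5 (ENSMUSG00000067714; chromosome 6, 125067920 to 125082472, plus strand) had 3 counts in all, 1 in a batch 1 library and 2 in a batch 2 library. Lpar3 (ENSMUSG00000036832; chromosome 3, 146220963 to 146286186, plus strand) had 0 counts in every library, which allows up to 0.0167 CPM over the 35 libraries together. Lpar4, the LPA receptor outside the set, also had 0 counts throughout. Lpar2, Lpar3 and Lpar5 did not pass the filter on low counts in either experiment and have no fold change here.

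Lpar6, a receptor of the purinergic-like branch of the LPA receptors, stood at 29.4, 39.0 and 26.7 CPM in batch 1 and at 38.6 and 29.7 CPM in batch 2, against 21.5, 21.1 and 14.6 CPM in the controls. Each treated library lay above all controls, as was so for 6.61% of the 9845 genes tested in batch 1 and for 10.9% in batch 2. The log2 fold change was 0.76 ± 0.41 in batch 1 (adjusted p = 0.679, edgeR) and 0.86 ± 0.44 in batch 2 (adjusted p = 0.714), so neither passed. With carmofur Lpar6 ranged from 14.1 to 51.5 CPM with a median of 30.1 CPM, against 4.29 to 51.2 CPM with a median of 22.6 CPM in controls. The ranges overlapped. Lpar6 lies wholly within Rb1 on the opposite strand, and whether counting used strand is not stated. The log2 fold change was 0.38 ± 0.29 (95% interval -0.19 to 0.95, adjusted p = 0.557). Lpar6 averaged more with carmofur in blocks 1 and 2 (38.7 and 28.5 CPM, against 23.8 and 12.2 CPM in controls) and less in block 3 (18.5 CPM, against 28.5 CPM in controls). That difference between blocks did not pass (adjusted p = 0.393).

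Lpar1, a receptor of the EDG family, stood at 9.66, 3.03 and 13.6 CPM in batch 1 and at 4.64 and 4.88 CPM in batch 2, against 4.03, 18.2 and 7.77 CPM in the controls. With carmofur it ranged from 0 to 56.5 CPM with a median of 6.82 CPM, against 0.214 to 20.3 CPM with a median of 7.23 CPM in controls. The highest value, 224 counts, belonged to carmofur library 10, and 4 carmofur libraries had 3 counts or fewer. The log2 fold changes were -0.24 ± 0.77 in batch 1, -1.12 ± 0.89 in batch 2 and -0.09 ± 0.70 with carmofur (adjusted p = 0.987, 0.939 and 0.977). Without carmofur library 10 the last was -0.86 (adjusted p = 0.575). The palmitic acid values also rested on single libraries: without control library 2 Lpar1 was at 0.51 in batch 1 and at -0.36 in batch 2, and without batch 1 library 2 it was at 0.15 in batch 1. The intervals are wide: with carmofur the 95% interval ran from -1.45 to 1.27.

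**Figure D3:**
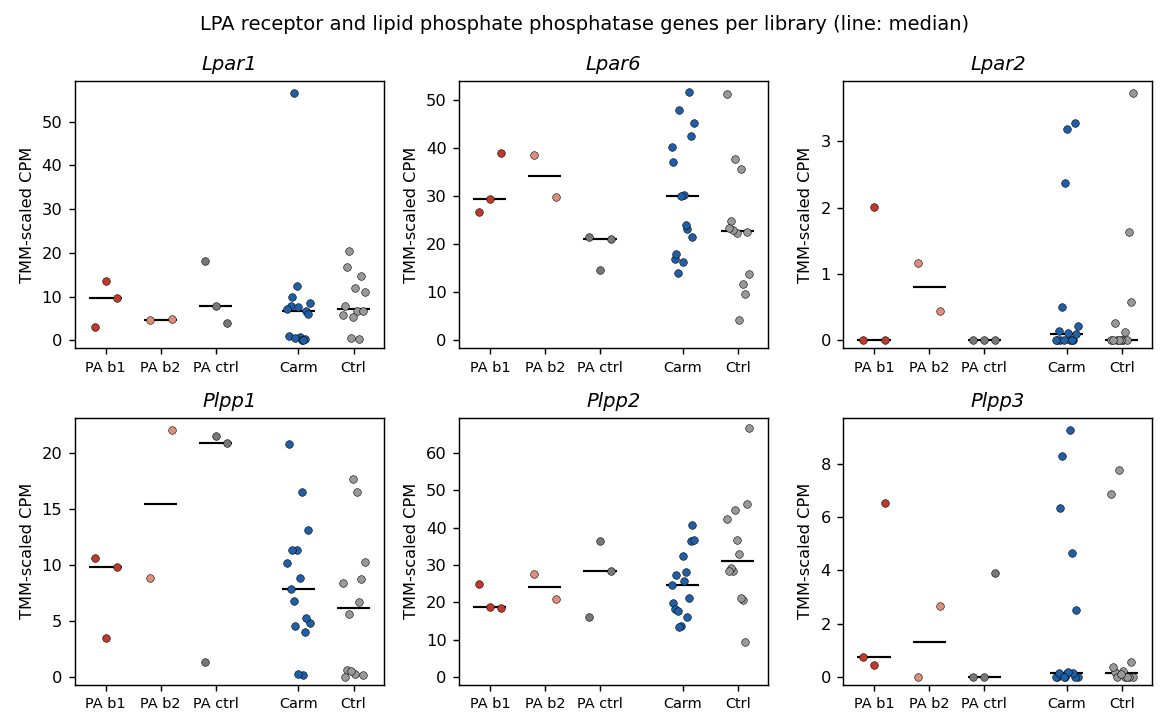
TMM-scaled CPM of 3 LPA receptor genes (upper row) and 3 lipid phosphate phosphatase genes (lower row) in every library, with a line at the median, for palmitic acid (PA) batches 1 and 2 (b1, b2), their control (PA ctrl), carmofur (Carm) and its control (Ctrl). Carmofur and its control overlap in all 6 panels, and the 5 palmitic acid libraries lie above their 3 controls for Lpar6.

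Of the phosphatases, Plpp2 was the most evenly measured. Plpp2 (ENSMUSG00000052151; chromosome 10, 79526430 to 79533796, minus strand) had more than 10 counts in all 35 libraries. It stood at 18.9, 25.01 and 18.6 CPM in batch 1 and at 20.9 and 27.5 CPM in batch 2, against 16.1, 28.3 and 36.4 CPM in the controls. With carmofur it ranged from 13.5 to 40.8 CPM with a median of 24.7 CPM, against 9.50 to 66.6 CPM with a median of 31.1 CPM in controls. Groups overlapped in both experiments. The log2 fold change was -0.45 ± 0.25 with carmofur (95% interval -0.93 to 0.04, adjusted p = 0.342), -0.39 ± 0.43 in batch 1 (adjusted p = 0.921) and -0.19 ± 0.48 in batch 2 (adjusted p = 0.997). Without control library 3 the palmitic acid values were -0.13 in batch 1 and 0.07 in batch 2, and without control library 1 they were -0.61 in batch 1 and -0.41 in batch 2. The carmofur mean was below the control mean in all 3 blocks, at 27.3, 24.2 and 21.1 CPM with carmofur, against 33.4, 34.2 and 34.1 CPM in controls.

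Plpp1 and Plpp3 were present in some libraries and near 0 in others of the same group. Plpp1 (ENSMUSG00000021759; chromosome 13, 112800792 to 112867894, plus strand) had more than 10 counts in 26 libraries and 3 or fewer in 8. It stood at 10.6, 9.85 and 3.52 CPM in batch 1 and at 22.04 and 8.86 CPM in batch 2, against 1.34, 21.5 and 20.9 CPM in the controls. The low control value was a single count in the shallowest library. With carmofur it ranged from 0.219 to 20.8 CPM with a median of 7.89 CPM, against 0 to 17.7 CPM with a median of 6.15 CPM in controls. Its log2 fold changes were -0.92 ± 0.65 in batch 1, 0.02 ± 0.71 in batch 2 and 0.41 ± 0.67 with carmofur (adjusted p = 0.815, 0.998 and 0.841). Leaving out 1 library in turn gave -1.38 to -0.59 in batch 1, and in batch 2 from -0.77 without batch 2 library 1 to 0.53 without batch 2 library 2. With carmofur it gave 0.25 without carmofur library 6 and 0.66 without control library 10.

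Plpp3 (ENSMUSG00000028517; chromosome 4, 105157347 to 105232764, plus strand) had 0 counts in 14 libraries, 1 to 3 counts in 11 and more than 3 in 10. More than 3 counts were found in 5 of 15 carmofur libraries and in 2 of 12 of their controls, with up to 87 and 55 counts. Its median was 0.155 CPM with carmofur and 0.163 CPM in controls. Like Lpar2, it did not pass the filter on low counts.

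In total 5 of the 9 members could be tested in each experiment, namely Enpp2, Lpar1, Lpar6, Plpp1 and Plpp2. Apart from Enpp2, whose treatment effects chose it and are given without a test, the 4 others passed an adjusted p of 0.05 in none of the 3 treatment comparisons by edgeR. Over all genes 0.559% passed in batch 1 (0.315% higher, 0.244% lower), 0.325% in batch 2 (0.183% higher, 0.142% lower) and 9.02% with carmofur (5.21% higher, 3.8% lower). For the difference between the carmofur and batch 1 effects, 0.69% of 14052 genes passed (0.548% higher, 0.142% lower), and 0 of the 6 members tested besides Enpp2 did so.

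**Figure D4:**
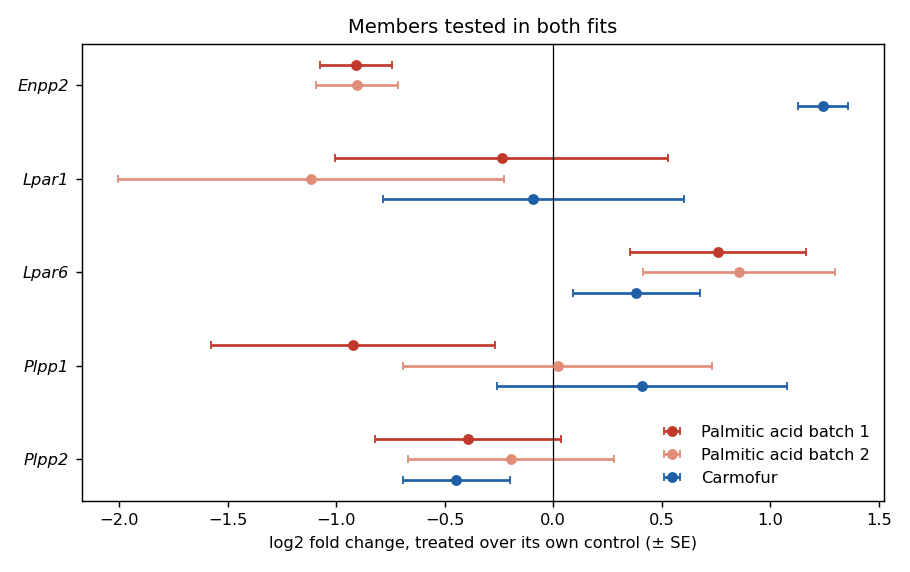
Log2 fold change (± SE) of the 5 members tested, each treatment over its own control. Enpp2 is at -0.91 and -0.90 in the palmitic acid batches and at 1.24 with carmofur, while the errors of Lpar1, Lpar6, Plpp1 and Plpp2 are wider and none of these passed.

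Levels of different genes were compared as CPM per kilobase of the longest transcript in GENCODE M21. Enpp2 was the highest member in every group and lay above Plpp2 in all 35 libraries, by a median ratio of 6.93. Its median was 194 CPM per kilobase with carmofur and 82.5 in controls, and 54.1 in batch 1, 53.5 in batch 2 and 101 in the palmitic acid controls. Plpp2 came next, with a median of 14.9 CPM per kilobase with carmofur and 18.8 in controls, and was above Lpar6 in 34 of 35 libraries. Plpp1 and Lpar6 could not be ordered, since Lpar6 was above Plpp1 in 19 of 35 libraries. Lpar6 was above Lpar1 in 28 of 35 libraries. The remaining members had medians of at most 0.421 CPM per kilobase in any group. The LPA-producing enzyme was thus the most abundant transcript of the set per length, and Lpar6 the most abundant receptor transcript by median in every group.

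Markers of mesenchymal cells and adipocytes, which are known to express autotaxin, were low, and their part in the Enpp2 values was not tested. Of 10 mesenchymal markers, Col1a1, Col1a2, Pdgfrb, Lum and Thy1 had 0 CPM in every library, and Vim was the 1 marker with more than 3 counts in all 35. The mesenchymal sum was 8.68 to 76.0 CPM with carmofur and 3.78 to 67.5 CPM in controls, and 24.4 to 37.2 CPM in batch 1, 11.1 to 37.4 CPM in batch 2 and 29.6 to 41.3 CPM in the palmitic acid controls. Of 6 adipocyte markers Adipoq, Plin1, Lep and Cfd were at 0 CPM in every library. Retn had more than 3 counts in 32 of 35 libraries, with a median of 3.28 CPM and up to 13.4 CPM. The adipocyte sum, made up of Retn and of Cidec, which had more than 3 counts in 6 libraries, was 1.89 to 13.4 CPM with carmofur and 0.581 to 15.8 CPM in controls, and 0.379 to 7.36 CPM in batch 1, 1.77 to 2.90 CPM in batch 2 and 1.34 to 4.37 CPM in the palmitic acid controls. The sum of the 8 epithelial markers was 1701 to 2593 CPM with carmofur and 1583 to 2380 CPM in controls, and 1247 to 1331 CPM in batch 1, 1233 to 1259 CPM in batch 2 and 1408 to 1477 CPM in the palmitic acid controls. Among 8 immune markers Cd68 had more than 3 counts in all 35 libraries (median 34.9 CPM). Among 7 endothelial and blood markers Pecam1 did so (median 12.5 CPM). The other markers of these lists did so in at most 6 libraries. Neither Cd68 nor Pecam1 passed in any treatment comparison by edgeR.

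Of 37 other genes that make, convert or break down LPA and related lysophospholipids, 29 could be tested with carmofur. In this list 5 rose and 0 fell, where 5.21% of all genes tested rose, and its median log2 fold change was 0.29 against 0.00 over all genes. Lpcat4, an acyltransferase of lysophospholipids, averaged 46.3 ± 14.2 CPM with carmofur and 22.5 ± 10.6 CPM in controls (SD, n = 15 and 12), a log2 fold change of 1.04 ± 0.24 (adjusted p = 0.00281, edgeR). Pla2g4a, the cytosolic phospholipase that releases arachidonic acid and leaves a lysophospholipid, averaged 48.1 ± 18.3 CPM with carmofur and 24.04 ± 10.5 CPM in controls (1.01 ± 0.25, adjusted p = 0.0055). Gdpd1, another lysophospholipase D that can form LPA, averaged 80.6 ± 20.2 CPM with carmofur and 52.0 ± 19.4 CPM in controls (0.62 ± 0.18, adjusted p = 0.023). Mboat1, another lysophospholipid acyltransferase, averaged 67.1 ± 20.9 CPM with carmofur and 40.5 ± 20.9 CPM in controls (0.72 ± 0.22, adjusted p = 0.0282).

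Agpat4, which acylates LPA to phosphatidic acid, had more than 3 counts in 14 of 15 carmofur libraries and in 1 of 12 controls (7.92 ± 7.48 CPM with carmofur, 0.584 ± 1.75 CPM in controls, adjusted p = 0.00899). Its fitted log2 fold change was 3.64 ± 0.96, but 6.35 without control library 12, so its size rests on 1 control library. Agpat4 was also found in the untreated controls of the palmitic acid experiment, with more than 3 counts in 3 of 3 libraries (4.92 ± 2.62 CPM). With counts summed by library set Lpcat4 kept its call, while Pla2g4a, Agpat4, Gdpd1 and Mboat1 did not (adjusted p = 0.0584, 0.117, 0.206 and 0.135). Mboat1 also lost its call without carmofur library 7 or control library 1, 6, 9, 10 or 12 (adjusted p = 0.0515 to 0.062). With palmitic acid 0 of 30 tested genes of this list passed in either batch by edgeR. Over all genes 0.559% passed in batch 1 and 0.325% in batch 2, so 0 of 30 is near those shares. The list had median log2 fold changes of 0.17 in batch 1 and 0.11 in batch 2 (0.01 and -0.01 over all genes). The lowest p-values were those of the lipin gene Lpin2 in batch 1 (-1.53 ± 0.65, adjusted p = 0.516) and of Lpin1, another phosphatidate phosphatase, in batch 2 (-0.999 ± 0.61, adjusted p = 0.803).

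Few of the signalling genes downstream of LPA receptors would pass at the shares over all genes. Of 21 G protein and effector genes, 15 could be tested, and 0 passed by edgeR in batch 1, in batch 2 or with carmofur. Over all genes tested 0.559%, 0.325% and 9.02% passed, so 0 of 15 is near those shares. With carmofur the lowest p-values belonged to the phospholipase C gene Plcb3 (-1.08 ± 0.56, adjusted p = 0.298) and the inhibitory G protein gene Gnai1 (-0.62 ± 0.39, adjusted p = 0.426). Of 6 other genes of the Enpp2 family, 3 could be tested and 0 passed, too few to set against those shares. With carmofur the log2 fold change of Enpp5 was 1.085 ± 0.55 (adjusted p = 0.276), that of Enpp4 1.89 ± 0.98 (adjusted p = 0.298) and that of Enpp1, which hydrolyses nucleotides, 0.95 ± 0.70 (adjusted p = 0.543).

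The genes whose levels varied most like Enpp2 over the 27 libraries of the carmofur experiment, after subtracting group means, were Cd55 (r = 0.82), Ugp2 (0.804), Cyp4x1 (0.784), Lypd1 (0.777) and Ech1 (0.773). Pearson's r was taken over libraries on log2(CPM + 0.5), among 8042 named protein-coding genes, whose median r was 0.000912. These points share library sets and blocks. With block means subtracted too, r was 0.286 for Cd55, 0.0534 for Ugp2, 0.574 for Cyp4x1, 0.308 for Lypd1 and 0.503 for Ech1, so most of the likeness of Cd55, Ugp2 and Lypd1 lay in differences between blocks.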

How the data were processed

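Poly(A)-selected, strand-specific RNA libraries of organoids were made after TRIzol extraction, per the labels' protocols. The authors deposited 1 table of estimated counts per gene as whole numbers, made with Salmon 1.3.0 on mm10, as the submitters' processing notes list them. Which annotation was used, and how transcripts were summed to genes, is not stated. Counts were tested with edgeR 4.0.16 in R 4.3.3 (TMM scaling, default expression filter, robust quasi-likelihood F test, Benjamini-Hochberg threshold 0.05). The palmitic acid libraries (8 libraries, 9845 genes), the carmofur libraries (27, 9992) and all 35 (14052) were fitted apart. The biological coefficients of variation were 0.41, 0.75 and 0.97. CPM were scaled over all 35 libraries. Standard errors are the log2 fold change divided by the square root of F. The 95% intervals reach 1.96 standard errors to either side, a normal quantile, so with only 8 palmitic acid libraries they may be too narrow. The fits were tested on simulated data. Positions and lengths come from GENCODE M21 (mm10).

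The members, gene lists and tests were chosen with earlier results of these data known. Named are all members, list genes past the threshold (otherwise those with the lowest p) and, for members above 5 CPM, the 5 genes most like them. A result that this rule would name among the signalling genes is not reported here. The 3 libraries left out together in 1 alternative were those an earlier analysis of these data found to stand apart. Alternatives used limma 3.58.1 and DESeq2 1.42.0. No 2 libraries of a group agreed within counting error (lowest chi-square per degree of freedom 7.4 over 178 pairs).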

Additional observations from a re-analysis of the deposited data

Results flagged for a closer look

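Enpp2 moved in opposite directions under the 2 treatments, since all 5 palmitic acid libraries lay below their controls and all 15 carmofur libraries above theirs. In a fit of all 35 libraries the carmofur effect minus the palmitic acid batch 1 effect was 2.16 ± 0.26 on the log2 scale (SE). No test of the difference is given, because Enpp2 was chosen with both effects known.

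The carmofur effect on Enpp2 also differed between the 3 blocks of library numbers (adjusted p = 0.000418, edgeR's quasi-likelihood test over all genes), with the largest log2 fold change of the 3 blocks, 1.99, in block 2. That test took the libraries of a set as independent, and Enpp2 was chosen with earlier results known.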

How the results depend on the processing

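The treatment effects on Enpp2 kept their direction under the 49 alternatives run with carmofur, 16 in batch 1 and 15 in batch 2. Enpp2 showed no overlap between treated libraries and controls, so leaving out or summing libraries could not turn these directions. With carmofur its log2 fold change was 1.2 to 1.28 without 1 library in turn, 1.12 to 1.32 without 1 library set, 1.16 without 3 libraries that stood apart (control 1, carmofur 8 and 10) and 1.15 with limma-voom. It moved by more than the spread between libraries in block 1 alone (0.88) and block 2 alone (1.99). It was -1.003 to -0.84 in batch 1 and -1.02 to -0.78 in batch 2 without 1 library in turn. The same replicate numbers did not mark paired libraries (r of deviations -0.0446 to 0.0341 over 7 pairs with palmitic acid and -0.0563 to 0.0878 over 12 pairs with carmofur). With the replicate number as a block, Enpp2 was at 1.27 with carmofur, and Pla2g4a, Gdpd1 and Mboat1 lost their calls (adjusted p = 0.0839, 0.0784 and 0.101). Summed by set, Pla2g4a, Agpat4, Gdpd1 and Mboat1 lost theirs (adjusted p = 0.0584 to 0.206). Gdpd1 also lost its call without set 1, 2, 5 or 7 (0.0738 to 0.113) and Mboat1 without set 1, 6, 8 or 9 (0.082 to 0.134), and 0 calls of Lpcat4, Agpat4 and Mboat1 held in a single block. Of 398 values of the other members under alternatives, 398 stayed on the same side of the threshold. Genes past the threshold with carmofur numbered 901, but 3541 without a filter, 334 summed by set and 234, 512 and 588 in blocks 1, 2 and 3 alone. In batch 1 they numbered 55, and 31, 33 and 21 without batch 1 library 1, 2 and 3. In batch 2 they numbered 32, and 55 with DESeq2. Between batches they numbered 10, 19 without a filter, and 5, 6 and 2 without batch 1 library 1, 2 and 3. Lpar2, Lpar3, Lpar5 and Plpp3 had too few counts for a fold change in either experiment, and Lpar1 and Plpp1 had counts at or under 3 in 7 and 8 libraries.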

Other observations

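Of the 9343 genes tested in both experiments, 2 (0.0214%) were lower in every library of both palmitic acid batches than in every control and higher in every carmofur library than in every control. Enpp2 was among these 2 genes, but it was chosen with both effects known, so the count is no evidence about it. Ahnak, which encodes a large scaffold protein of the plasma membrane, was named by another rule. It was called lower in both palmitic acid batches and higher with carmofur (adjusted p under 0.05, edgeR), as 0.0214% of the 9343 genes were. Whether Ahnak also separated in every library is not given here. Ahnak had log2 fold changes of -0.87 in batch 1, -0.88 in batch 2 and 0.59 with carmofur, against -0.91, -0.90 and 1.24 for Enpp2. The reverse of the pattern by library, higher with palmitic acid and lower with carmofur, was found in 0 genes. Ahnak was named after its values were seen.

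The genes most like the other members over the 27 carmofur libraries, after subtracting group means, were Tbx3, Svil, Iffo2, Fbxo6 and Washc4 for Lpar1 (r = 0.65 to 0.74) and Phrf1, Dusp16, Gmppb, Pak1 and Mrpl10 for Lpar6 (r = 0.643 to 0.712). For Plpp1 they were Npat, Ncoa2, Tmem184c, Tmem43 and Ldah (r = 0.62 to 0.668), and for Plpp2 Jmjd1c, Ddx41, Mios, Acvr2a and Ezh2 (r = 0.587 to 0.638). For each member these are the 5 highest of 8042 values, and no test was made.

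In the annotation the whole of Lpar6 lies within Rb1 on the opposite strand, and Plpp1 overlaps Mtrex on the opposite strand by 477 bases. Rb1 averaged 5.69 CPM and Mtrex 150 CPM over all libraries, and neither passed in any treatment comparison (adjusted p of at least 0.661). Gm26684, a non-coding gene that overlaps Enpp2 on the opposite strand, had at most 2 counts in any library.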
